A study of Homo sapiens with 4 samples.

Results

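The genes described here are 9 neighbours of IRF1 on the long arm of human chromosome 5, at 5q31: SLC22A4, SLC22A5, PDLIM4, P4HA2, RAD50, SEPTIN8, KIF3A, SHROOM1 and GDF9. They were taken by symbol from a table of 23622 genes, by a rule that names them for their position near IRF1. Of the 9, 7 had a row in the table and 5 had enough reads to be tested.

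The libraries came from MV4-11, a human acute myeloid leukemia (AML) cell line, and compared a knockdown of IRF1 (sh-IRF1, 2 libraries) with a control group (NC, 2 libraries). IRF1 encodes interferon regulatory factor 1, a transcription factor, and the study asked what it does in AML cells. The labels give all libraries a wild type genotype and describe NC as untreated, whereas the study's figures name its controls sh-NC, for a control hairpin. Knockdown cells in the study received hairpins in the pLKO.1 lentiviral vector and were selected with puromycin. Which IRF1 hairpin each sh-IRF1 library carried, and whether the libraries of a group came from separate cultures, is not given in the sources used here, so p-values measure only the spread between these samples, which may be technical.

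The 5q31 region is known for a cluster of cytokine genes (IL3, CSF2, IL5, IL13 and IL4), with IRF1 among them, and lies within the part of chromosome 5 that is often lost in myeloid neoplasms. Around these genes lie unrelated housekeeping and tissue-restricted genes. SLC22A4 and SLC22A5 are paralogs that encode plasma membrane transporters. SLC22A4 carries ergothioneine and organic cations, and SLC22A5 is the high-affinity carnitine transporter that supplies fatty acid oxidation in mitochondria. RAD50 is a subunit of the MRE11-RAD50-NBN complex, which senses and repairs DNA double-strand breaks, and its introns hold regulatory elements of the cytokine cluster in T cells. KIF3A is a motor subunit of kinesin-2 and SEPTIN8 a GTP-binding protein of septin filaments. P4HA2 is a catalytic subunit of collagen prolyl 4-hydroxylase, PDLIM4 a PDZ and LIM domain adaptor of the actin cytoskeleton, SHROOM1 an actin-binding protein, and GDF9 a growth factor of the oocyte.

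The hairpin target sites are shown beside their closest matches in the neighbours. Both target sites were found in coding exons of IRF1 on the minus strand of GRCh38, the first in exon 7 of 10 (chr5:132486284-132486304) and the second in exon 8 (chr5:132485672-132485692).
sh-IRF1#1: gcaccagtgatctgtacaact
sh-IRF1#2: ggaaattacctgaggacatca
Over all annotated transcripts of the 9 neighbours, the closest ungapped match to sh-IRF1#1 had at least 7 mismatches of 21 bases, and the closest match to sh-IRF1#2 had at least 6, in SLC22A5 and KIF3A.

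IRF1 itself (ENSG00000125347, chr5:132440440-132508719, minus strand) was checked first. Its normalized counts, which are reads divided by a size factor of the library, were 785 and 738 in NC and 430 and 432 in sh-IRF1. The mean fell from 762 ± 32.7 (SD, n = 2) to 431 ± 1.58 (SD, n = 2), which is 56.6% of NC. The log2 fold change was -0.82 (SE 0.0904, limma adjusted p = 1.69e-10). The antisense gene IRF1-AS1, whose exons share 22.9% of the IRF1 exonic bases, had between 21 and 33 reads in every library against 432 to 765 reads for IRF1.

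Among the neighbours, SLC22A4 rose after IRF1 knockdown, and none of the other 4 tested genes passed the test. With a limma adjusted p under 0.05, 1 of 5 tested neighbours was called higher and 0 lower. Over all 14120 genes tested, 42.2% were called, 20.3% higher and 21.9% lower. A count of 1 in 5 is too small to be told apart from these shares. At an unadjusted p under 0.05 the count was also 1 of 5, SLC22A4, with 0 lower. edgeR's quasi-likelihood test called 1 of these genes, and DESeq2 called 0. With a log2 fold change beyond 0.5 as well, SLC22A4 was still called, beside 15.8% of all genes. The median log2 fold change of the 5 genes was -0.0014 and that of all genes tested -0.0019.

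**Figure D1:**
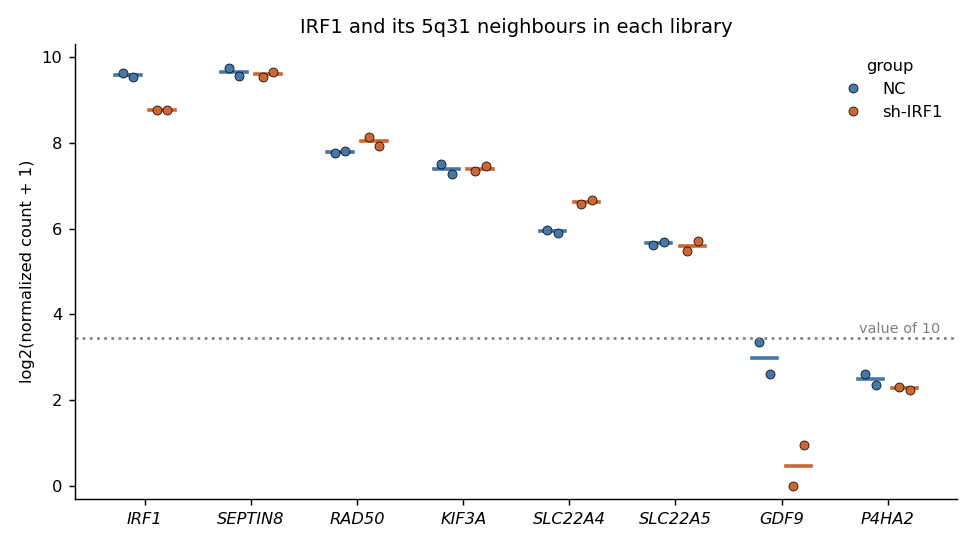
Log2(normalized count + 1) of IRF1 and of the neighbours with a row in the table, in each of the 4 libraries; points are libraries and short bars the mean of the 2 libraries of a group, with a dotted line at a value of 10. SLC22A4 lies higher in both sh-IRF1 libraries and IRF1 lower, while the points of SLC22A5, SEPTIN8 and KIF3A overlap between the groups.

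SLC22A4 (ENSG00000197208) lies at chr5:132294394-132344190 on the plus strand, and its start lies at -196.4 kb from that of IRF1, with negative distances toward lower coordinates. NC had 60 and 57 reads of it and sh-IRF1 95 and 108, or normalized counts of 61.5 and 58.5 against 94.5 and 101.2. Both sh-IRF1 libraries lay above both NC libraries. From 60.0 ± 2.12 (SD, n = 2) the mean rose to 97.8 ± 4.73 (SD, n = 2), which is 163% of NC. The log2 fold change was 0.69 (SE 0.238, 95% interval 0.22 to 1.17, limma adjusted p = 0.0158). edgeR gave an adjusted p of 0.0156 and DESeq2 one of 0.0527, above the threshold of 0.05. The call was also lost without sh-IRF1 replicate 1 (log2 fold change 0.74, adjusted p = 0.0669) and without sh-IRF1 replicate 2 (0.65, adjusted p = 0.122), and over all alternatives the adjusted p ran from 0.0100 to 0.122. The long non-coding gene MIR3936HG shares 235 exonic bases with SLC22A4 on the opposite strand (8.64%). Its reads were 0 and 0 in NC and 5 and 4 in sh-IRF1. How reads in the shared bases were counted is not given in the sources used here. Their part in the SLC22A4 change was not tested.

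SLC22A5 (ENSG00000197375), the paralog that follows SLC22A4 on the same strand, lies at chr5:132369710-132395613, and its start lies at -121.1 kb. Its reads were 47 and 49 in NC and 44 and 55 in sh-IRF1, and its normalized counts were 48.2, 50.3, 43.8 and 51.5 in the same order. Both NC values fell between the sh-IRF1 values. The log2 fold change was -0.05 (SE 0.298, limma adjusted p = 0.909), with a 95% interval from -0.65 to 0.55, so that a change of the size seen in IRF1 lay outside it on the lower side while one of about 0.5 in either direction was not detectable at this depth. The log2 ratio of SLC22A4 to SLC22A5 was 0.35 and 0.21 in the NC libraries and 1.09 and 0.96 in the sh-IRF1 libraries. This ratio was higher in both sh-IRF1 libraries, by 0.75 on average, with a two-sided exact permutation p of 0.333, the smallest p that 2 against 2 libraries can give. Against SEPTIN8, KIF3A and RAD50 the log2 ratio of SLC22A4 rose by 0.75, 0.70 and 0.45, so the shift is not particular to the paralog.

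The 250 bases before the start of each transporter gene, and of IRF1, are shown from RefSeq (GRCh38.p14) because the paralogs lie on the same side of IRF1 and gave different values. All 9 neighbours matched an entry by symbol. The capitals mark TTCNNNGAA, the core of a GAS element to which STAT proteins bind.
SLC22A4, chr5:132294144-132294393, plus strand: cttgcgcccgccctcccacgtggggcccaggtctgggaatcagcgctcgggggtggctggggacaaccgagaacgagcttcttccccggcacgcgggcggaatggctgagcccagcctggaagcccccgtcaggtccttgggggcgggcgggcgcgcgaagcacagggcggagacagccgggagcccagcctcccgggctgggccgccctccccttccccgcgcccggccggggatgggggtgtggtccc
SLC22A5, chr5:132369460-132369709, plus strand: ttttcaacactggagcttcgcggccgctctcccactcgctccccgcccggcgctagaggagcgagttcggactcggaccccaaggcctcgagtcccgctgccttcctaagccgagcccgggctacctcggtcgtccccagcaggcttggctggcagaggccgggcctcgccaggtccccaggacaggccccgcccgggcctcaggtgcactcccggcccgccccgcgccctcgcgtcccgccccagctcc
IRF1, chr5:132490774-132491023, minus strand: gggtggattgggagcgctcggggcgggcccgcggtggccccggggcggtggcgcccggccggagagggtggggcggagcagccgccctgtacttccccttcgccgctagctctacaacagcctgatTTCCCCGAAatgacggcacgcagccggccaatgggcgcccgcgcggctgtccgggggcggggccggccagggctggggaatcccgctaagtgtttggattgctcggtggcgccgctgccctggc
In windows of 250 bases before and 50 after each start, on both strands, GAAANNGAAA, the core that IRF proteins recognise, was found at none of the 9 neighbours and not at IRF1. It was found at 3.57% of all 35116 promoters, and at any promoter of 4.38% of all 27305 genes. TTCNNNGAA was found at IRF1 and at both listed SEPTIN8 promoters, beside 7.66% of all promoters and any promoter of 9.38% of all genes. With no GAAANNGAAA in these windows, no match of one motif overlapped a match of the other. The IRF1 window held its match 124 bases before the start. Each match, or its lack, describes only the letters in the window.

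RAD50 (ENSG00000113522, chr5:132556019-132646349, plus strand) is the nearest of the 9 to IRF1, with a start 66.2 kb away. It had 211 and 218 reads in NC and 283 and 259 in sh-IRF1, with normalized counts of 216 and 224 against 282 and 243. The sh-IRF1 libraries both lay above the NC libraries, with a wider spread (262 ± 27.5 against 220 ± 5.28, SD, n = 2 each). The difference did not pass the test, with a log2 fold change of 0.25 (SE 0.139, 95% interval -0.03 to 0.53, limma adjusted p = 0.155). With edgeR the adjusted p was 0.135 and with DESeq2 0.279. RAD50 and SLC22A4 were the 2 of 5 tested neighbours whose groups did not overlap, beside 69.2% of all genes tested. Of the RAD50 exonic bases, 76.9% are also annotated to ENSG00000283782, a longer gene on the same strand that had 0 or 1 read in each library. How reads in such shared exons were counted is not given in the sources used here, so the RAD50 level is uncertain.

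KIF3A (ENSG00000131437, chr5:132692628-132737638, minus strand) starts 246.8 kb from IRF1, next to IL4. Its reads were 176 and 150 in NC and 161 and 185 in sh-IRF1, and its normalized counts 181, 154, 160 and 173. The groups overlapped and had nearly equal means, 167 ± 18.7 and 167 ± 9.33 (SD, n = 2 each). The log2 fold change had a 95% interval from -0.34 to 0.33 (limma adjusted p = 0.995).

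SEPTIN8 (ENSG00000164402, chr5:132750819-132807241, minus strand), 286.5 kb from the IRF1 start, had the most counted reads of the tested neighbours, though the RAD50 count is uncertain. It had 829 and 733 reads in NC and 744 and 854 in sh-IRF1. The normalized counts of 850, 753, 740 and 800 overlapped between the groups. With means of 802 ± 68.9 and 770 ± 42.5 (SD, n = 2 each), the log2 fold change was -0.06 (SE 0.0802, limma adjusted p = 0.612). Its 95% interval, -0.22 to 0.11, was the narrowest of the 5. Exons of CCNI2 on the opposite strand share 14.9% of the SEPTIN8 exonic bases, and CCNI2 had at most 4 reads in a library.

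The other 4 neighbours had few or no reads, and none was tested. P4HA2 (ENSG00000072682, chr5:132190147-132295315, minus strand) had 5 and 4 reads in NC and 4 and 4 in sh-IRF1. Its ratio of sh-IRF1 to NC was 0.836, and the exact 95% interval for counting error alone ran from 0.281 to 2.44, so a 2-fold change could not be seen at this depth. GDF9 (ENSG00000164404, chr5:132861181-132866884, minus strand) had 9 and 5 reads in NC and 0 and 1 in sh-IRF1. Both sh-IRF1 libraries lay below both NC libraries, as they also did in the normalized counts of P4HA2. Of all genes tested, 69.2% had groups that did not overlap. The ratio was 0.0672, with an exact counting interval from 0.00159 to 0.441. When every gene in the table was kept, the adjusted p of GDF9 was 0.0547 with limma and 0.138 with edgeR, and DESeq2 gave it no adjusted p. GDF9 shares 255 exonic bases, 6.33% of its own, with UQCRQ on the opposite strand, which had 380 to 440 reads in a library, and reads of such a pair cannot be assigned where strand is not recorded. PDLIM4 (ENSG00000131435, chr5:132257696-132273454, plus strand) and SHROOM1 (ENSG00000164403, chr5:132822141-132830659, minus strand) had no row in the table, whose lowest row total was 2 reads. They were not analysed here.

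Levels were compared between genes as RPKM, the reads scaled to the length of the canonical transcript and to the library's total. The place of RAD50 in the order below is uncertain, as 76.9% of its exonic bases are shared on the same strand. IRF1 (22.9%) and SEPTIN8 (14.9%) share exonic bases with genes on the opposite strand, and how shared reads were counted is not given. In NC, SEPTIN8 stood highest at 16.1 ± 1.41 (SD, n = 2) RPKM, followed by IRF1 at 11.8 ± 0.526. SLC22A4 (1.48 ± 0.0547), RAD50 (1.47 ± 0.0330) and KIF3A (1.46 ± 0.166) then lay within their spread of each other. SLC22A5 was lower, at 0.830 ± 0.0239 RPKM, and GDF9 (0.107) and P4HA2 (0.0561) were close to 0. In sh-IRF1 the order of the means of the 5 tested neighbours and IRF1 was the same, and SLC22A4, at 2.49 ± 0.129 RPKM, lay above RAD50 at 1.80 ± 0.183, with KIF3A at 1.44 and 1.57 RPKM in its libraries. IRF1 stood at 6.90 ± 0.0495 and SEPTIN8 at 15.9 ± 0.936 RPKM. In bulk RNA a change per cell and a change in the share of cells that express a gene cannot be told apart.

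**Figure D2:**
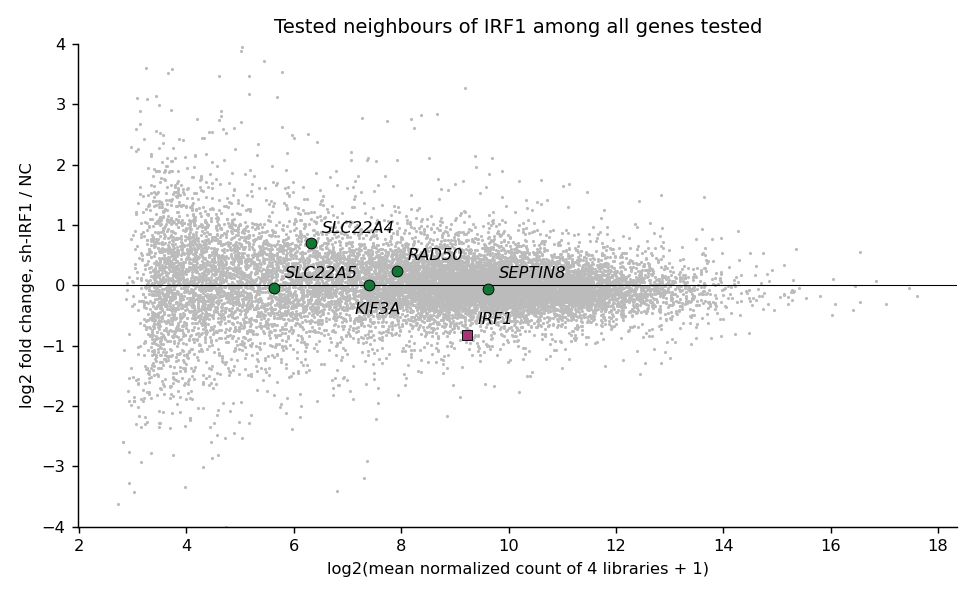
Log2 fold change (sh-IRF1 over NC) against log2(mean normalized count + 1) over the 4 libraries for all 14120 genes tested (grey), with the 5 tested neighbours and IRF1 named. SLC22A5 and SLC22A4 lie at the low end of the level axis, and SLC22A4 lies above 0 while IRF1 lies below it; 5 genes fall outside the plotted range of fold changes.

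The 9 genes were set beside the rest of the neighbourhood, which was taken by position alone. Within 1 Mb of the IRF1 start the annotation lists 68 genes besides IRF1, of which 28 had a row and 14 were tested. In all, 4 of 14 were called by limma, 2 higher (SLC22A4 and FNIP1) and 2 lower (AFF4 and HSPA4), or 28.6% beside the 42.2% of all genes. Their median log2 fold change was -0.088. By distance from IRF1, 1 of 6 tested genes was called within 0.25 Mb (SLC22A4), 1 of 4 between 0.25 and 0.5 Mb, and 2 of 4 between 0.5 and 1 Mb. On the whole of chromosome 5, 265 of 632 tested genes (41.9%) were called.

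FNIP1, a regulator of AMPK and mTOR signalling, rose from 779 ± 31.2 to 1020 ± 70.8 normalized counts (log2 fold change 0.39, limma adjusted p = 2.92e-05). AFF4, a scaffold of the super elongation complex, fell from 1655 ± 108 to 1175 ± 64.0 (-0.49, adjusted p = 5.14e-09). HSPA4, a chaperone of the Hsp110 family, fell from 6012 ± 162 to 5285 ± 44.1 (-0.19, adjusted p = 2.71e-05, SD and n = 2 for each mean). These 3 genes lie farther from IRF1 than any of the 9. The other tested genes of the window did not pass: RAPGEF6 (log2 fold change -0.29, adjusted p = 0.0613), ZCCHC10 (-0.21, 0.132), UQCRQ (-0.15, 0.285), LEAP2 (-0.31, 0.604), IRF1-AS1 (-0.12, 0.842) and LINC02863 (0.84, 0.140). Of the RAPGEF6 exonic bases, 54.9% are shared on the same strand, so its level is uncertain, like that of RAD50.

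LINC02863 lies between SLC22A5 and IRF1 and had 9 and 30 reads in NC and 32 and 33 in sh-IRF1, so its fold change rests on 1 low NC library. The study examined an enhancer of IRF1 named E1. The first 399 listed bases of E1 match chr5:132425602-132426000 exactly and overlap an exon of LINC02863. They lie 30.0 kb past the end of SLC22A5 and at -65.0 kb from the IRF1 start. IRF1-AS1 and ENSG00000283782 also span this stretch, with no exon in it. No label here names an edit at E1.

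**Figure D3:**
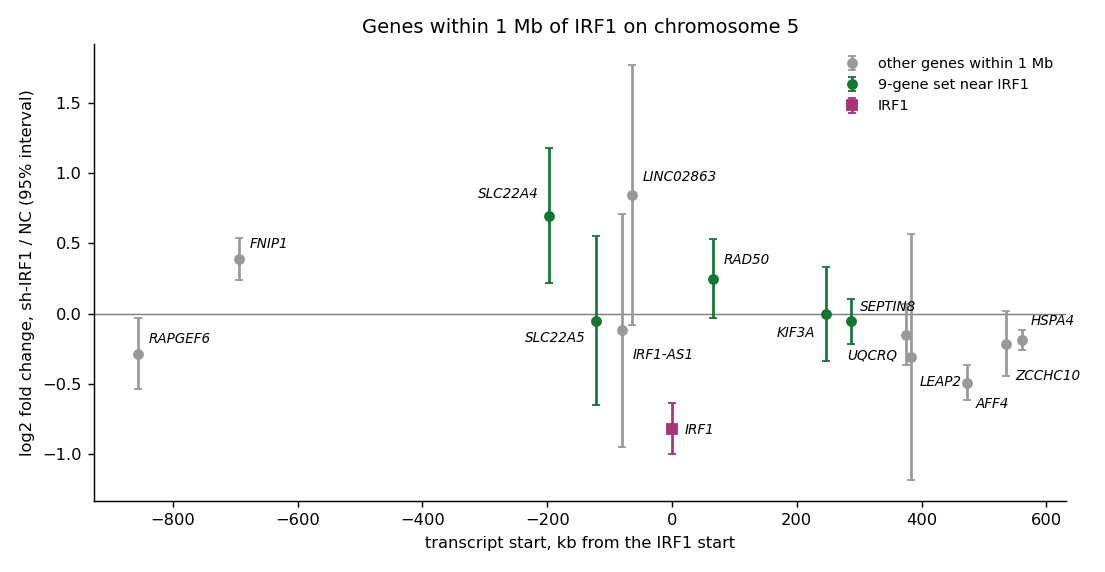
Log2 fold change with its 95% interval (limma) against the distance of the transcript start from that of IRF1, in kb, for the 14 tested genes within 1 Mb and IRF1 itself. Green points are the 5 tested neighbours of the set, grey points the other genes of the window; the intervals of SLC22A4, FNIP1, AFF4, HSPA4 and IRF1 stay clear of 0, as does that of RAPGEF6 before adjustment.

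Of the cytokine genes of the cluster, IL13 had 0, 1, 2 and 3 reads in the NC and sh-IRF1 libraries in turn, and IL3, CSF2, IL5 and IL4 had no row. TH2LCRR, a non-coding gene antisense to RAD50, had 4, 0, 3 and 4 reads. ACSL6 had 0, 4, 0 and 1. MIR3936HG, which overlaps both SLC22A genes, was at 0 in both NC libraries. Against a floor of 3 reads over the NC group it was 2.82-fold higher in sh-IRF1. The exact 95% interval of its ratio, for counting error alone and not replicate spread, began at 1.86. EEF1A1P50, ENSG00000230612, ENSG00000280104 and AFF4-DT were also at 0 in both NC libraries. Their sh-IRF1 reads were 1 and 3, 0 and 6, 0 and 6, and 3 and 0. ENSG00000250244 was at 0 in both sh-IRF1 libraries, with 0 and 2 reads in NC. The remaining genes of the window with a row but too few reads had at most 6 reads in a library.

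Genes of the same families and complexes show how the neighbours compare with their partners. Of 40 listed partner genes, 33 had a row and 26 were tested, and limma called 15, 8 higher and 7 lower, beside 42.2% of all genes. The list was drawn up from general knowledge with earlier results of these data known.

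Of the 4 other kinesin-2 genes tested, listed for a shared family or complex with KIF3A, limma called 3 higher. That stands beside 20.3% of all genes, and DESeq2 called 2. KIF3B, which pairs with KIF3A in the heterotrimeric motor, had 604 ± 16.1 normalized counts in NC and rose to 935 ± 41.6 in sh-IRF1 (SD, n = 2), with a log2 fold change of 0.63 and a limma adjusted p = 5.68e-09. KIF3C (0.58, adjusted p = 8.74e-04) and KIF17 (0.67, adjusted p = 0.0368, but 0.107 with DESeq2) were also called, whereas KIFAP3 was not (0.11, adjusted p = 0.529). The log2 ratio of KIF3A to KIF3B was -1.76 and -1.94 in NC and -2.58 and -2.38 in sh-IRF1. It was lower in both sh-IRF1 libraries, by 0.63 on average, and the two-sided exact permutation p was again 0.333, the smallest possible.

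Septins other than SEPTIN8 were called in 5 of 7 tested genes by limma, 1 higher and 4 lower, beside 20.3% higher and 21.9% lower over all genes, and in 4 by DESeq2. SEPTIN9 rose from 5682 ± 66.9 to 6875 ± 43.7 (log2 fold change 0.28, limma adjusted p = 3.65e-09), and SEPTIN7 fell from 2504 ± 114 to 2044 ± 1.12 (-0.29, adjusted p = 2.84e-06). In the MRN complex and its kinase, ATM rose (0.33, adjusted p = 1.04e-06), NBN fell (-0.11, adjusted p = 0.0263, but 0.0572 with DESeq2), and MRE11, the nuclease that binds RAD50, had a log2 fold change of 0.07 (adjusted p = 0.261).

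Carnitine handling was called in 3 of 6 tested genes by limma, a share near the 42.2% of all genes, and in 2 by DESeq2. CPT1A, which joins long-chain fatty acids to carnitine at the mitochondrial outer membrane, rose from 2998 ± 122 to 4616 ± 130 (0.62, limma adjusted p = 2.61e-17), SLC22A15 was higher (0.20, adjusted p = 0.0306, but 0.0864 with DESeq2), and CRAT, which moves acetyl groups to carnitine, fell (-0.25, adjusted p = 0.00520). SLC22A16, a carnitine transporter related to SLC22A5, did not pass the test (-0.65, adjusted p = 0.0703).

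Collagen prolyl hydroxylation held the largest change among the partner genes tested. P4HA1, the paralog of P4HA2, fell from 977 ± 49.2 to 442 ± 61.1 (log2 fold change -1.15, limma adjusted p = 5.98e-15), while P4HB, the subunit that P4HA1 and P4HA2 both bind, rose from 22264 ± 613 to 27681 ± 190 (0.31, adjusted p = 3.63e-15). P4HA3 had 1 and 3 reads in NC and 1 and 1 in sh-IRF1 and was not tested. Of the PDZ and LIM proteins related to PDLIM4, 0 of 4 tested genes were called by limma, beside 42.2% of all genes. edgeR and DESeq2 also called 0, beside 5948 of 14120 and 4917 of 14462 genes. At an unadjusted p under 0.05 in limma the count was 0 too, beside 6917 of 14120 genes. A count of 0 in 4 is too small to be told apart from these shares. PDLIM1 (-0.10, adjusted p = 0.149) and PDLIM7 (0.08, adjusted p = 0.177) came closest. No Shroom protein passed the filter on low values, and BMP15, the oocyte partner of GDF9, had no row.

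**Figure D4:**
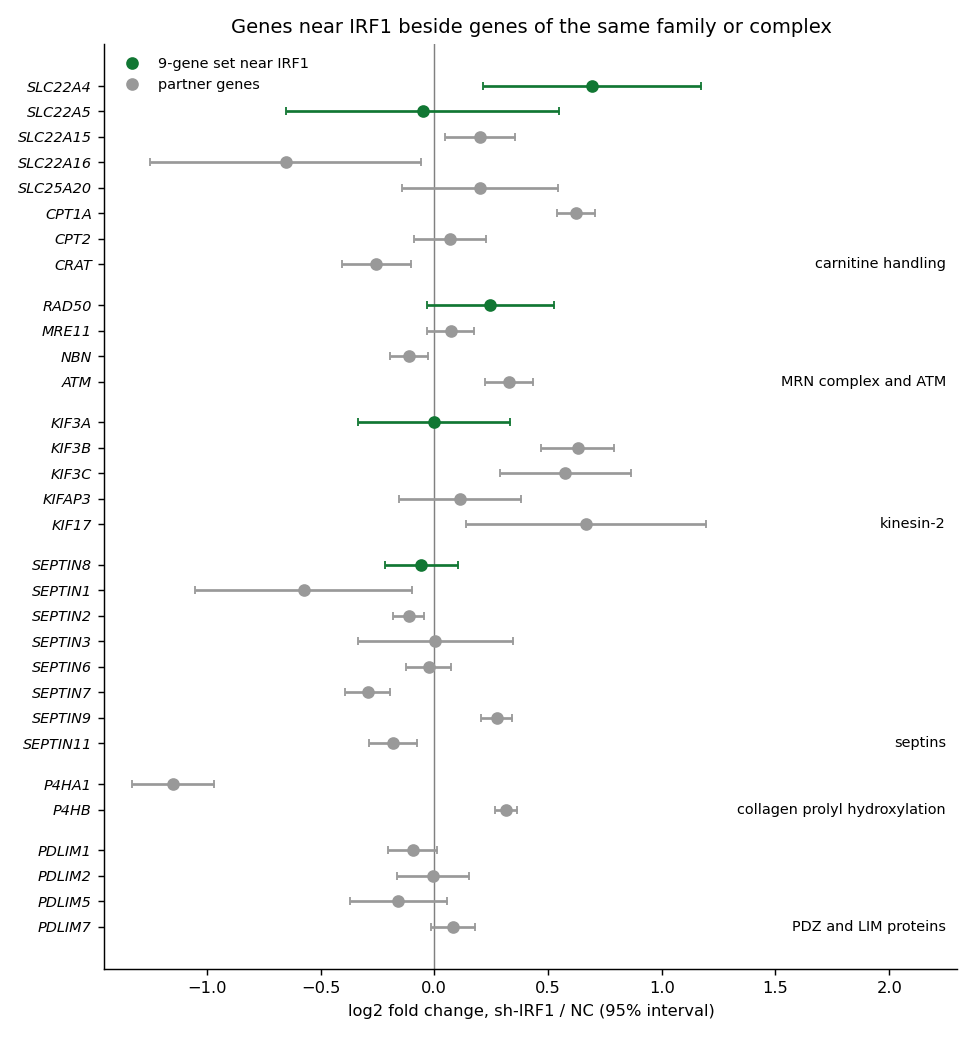
Log2 fold change (sh-IRF1 over NC) with its 95% interval from limma for each tested neighbour (green) and the tested genes of its family or complex (grey), grouped by list. KIF3A and SEPTIN8 lie at 0 while KIF3B, KIF3C, SEPTIN7 and SEPTIN9 lie away from it.

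Depth ran from 17635908 to 18695337 reads per library. All 9 myeloid markers had a row, with summed reads of 29848 to 30078 in NC and 27186 to 28674 in sh-IRF1. FLT3 held 12813 to 16954 of these reads, and single markers differed in both directions. LYZ had 1778 and 1738 reads in NC and 3293 and 3435 in sh-IRF1, and ITGAM 115 and 162 against 237 and 216. MPO had 465 and 431 in NC and 186 and 169 in sh-IRF1, and CD14 37 and 41 against 11 and 2. Of 9 markers of other lineages, 4 had a row, and CD3E, CD3D, MS4A1, HBB and EPCAM had none. The summed reads of those 4 were 1357 to 1587 in NC and 3452 to 3579 in sh-IRF1, mostly PECAM1, which some myeloid cells also express. The part of these markers in the change of SLC22A4 was not tested.

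Under the alternatives in processing the log2 fold change of SLC22A4 stayed between 0.65 and 0.74. That of RAD50 ran from 0.14 without sh-IRF1 replicate 1 to 0.35 without sh-IRF1 replicate 2. The signs of SLC22A5, SEPTIN8 and KIF3A, none of which was called, changed in some settings.

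**Figure D5:**
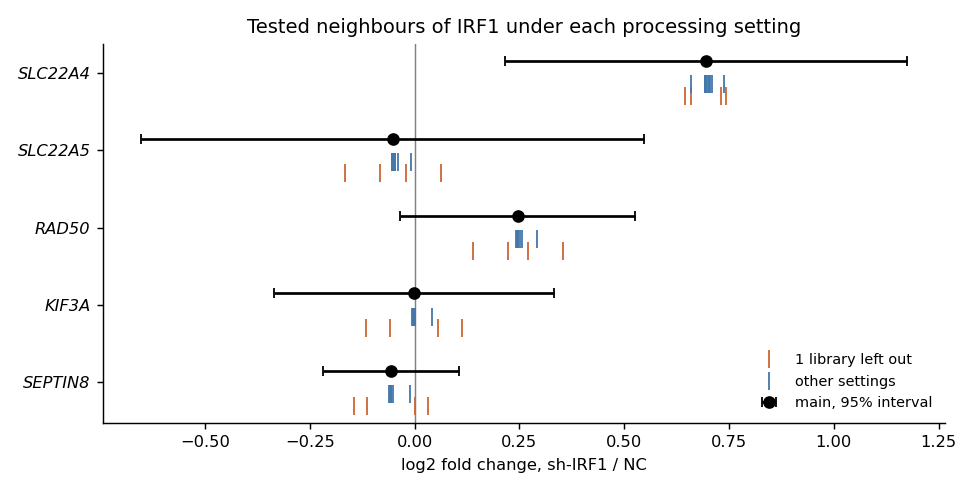
Log2 fold change of the 5 tested neighbours in the main limma fit (black, with 95% interval) and under each alternative of scaling, filter, pseudocount or test and each fit without 1 library (ticks). SLC22A4 and RAD50 stay above 0 in every setting shown, and SLC22A5, SEPTIN8 and KIF3A scatter on both sides of it.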

How the data were processed

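RNA sequencing of 2 NC and 2 sh-IRF1 libraries of MV4-11 cells was analysed from the deposited table. Libraries were prepared with an Illumina TruSeq kit per the labels, and the submitters' processing notes name HISAT2 2.0.5 and hg38. The study names DESeq2 for differential expression. Which tool and annotation counted the reads, and with what strand setting, is not given in the sources used here. The authors deposited a normalized signal: read numbers per gene after division by a size factor for the library. Each value came out as a whole number of reads to within 0.001 of a read, so the reads were recovered. The table held 0 other columns of per-sample values. The design anticipated either unit, and a count test on recovered reads served as an alternative.

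Genes that reached 10 in 2 or more libraries (14120 of 23622) were tested with limma 3.58.1 (trend and robust) in R 4.3.3 on log2(value + 1), and fold changes are on that scale, which understates changes of low genes. P-values were adjusted over all genes tested by the Benjamini-Hochberg method, with a threshold of 0.05. edgeR 4.0.16 and DESeq2 1.42.0 on the recovered reads, other scalings, filters, pseudocounts, a replicate block and fits without 1 library were alternatives; edgeR without a filter was chosen after seeing the data. Symbols matched 23456 identifiers, and positions and shared exons came from GENCODE 44. Exact intervals and the floor of 3 reads cover counting error only.

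The genes named were the 9 neighbours, IRF1, every tested gene within 1 Mb, low genes of that window by their reads, genes that overlap a neighbour, and, for each partner list and direction, the gene of lowest p; KIF3C, KIF17, KIFAP3, MRE11, SLC22A15, SLC22A16, P4HA3, PECAM1, FLT3, LYZ, ITGAM, MPO and CD14 were named after their values were seen. A planned marker is not reported here. The 9 genes and the lists were chosen with earlier results of these data known. Replicates differed by more than sampling noise (chi-square per gene 2.52 in NC and 2.37 in sh-IRF1). On simulated data of the same comparison with 14111 genes, limma called 98 of 100 genes changed by a log2 fold of 1, 89 of 100 changed by 0.6, and 2 unchanged genes. The changed genes were drawn only from better covered genes, and all genes were given the same replicate spread. Far fewer genes were changed than were called in the real libraries. These shares therefore do not give the power for low genes such as SLC22A5, GDF9 and P4HA2.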

Additional observations from a re-analysis of the deposited data

How the results depend on the processing

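IRF1 kept its direction and its call under all 16 alternatives, with log2 fold changes from -0.86 to -0.78. The number of tested neighbours called, 1, became 0 with DESeq2, and ran from 0 to 1 over the fits without 1 library, with 0 without sh-IRF1 replicate 1 and 0 without sh-IRF1 replicate 2. For SLC22A4 the log2 fold change stayed positive, and the adjusted p rose to 0.0527 with DESeq2, 0.0669 without sh-IRF1 replicate 1 and 0.122 without sh-IRF1 replicate 2; the fits without 1 library hold fewer samples, and the cause of the DESeq2 difference was not tested. Uncalled values that changed sign were SLC22A5, 0.064 without sh-IRF1 replicate 1 (range -0.17 to 0.064 without 1 library); SEPTIN8, 0.032 without NC replicate 1 and 4.67e-05 without sh-IRF1 replicate 1 (-0.14 to 0.032); and KIF3A, 0.043 with total counts alone, 0.0019 with edgeR, 0.11 without NC replicate 1 and 0.055 without sh-IRF1 replicate 1 (-0.12 to 0.11). The 4 of 14 tested genes called within 1 Mb became 1 of 14 with a log2 fold change beyond 0.5, beside 15.8% of all genes. Within 0.5 Mb, 2 of 10 tested genes were called, and within 2 Mb 11 of 27, beside 42.2% of all genes. The larger count within 2 Mb thus came with more genes tested. The median log2 fold change of the 14 tested genes within 1 Mb ran from -0.12 to -0.0043 over the fits without 1 library. Partner genes called went from 15 of 26 to 11 of 27 with DESeq2, which called 4917 of 14462 genes in all, against 5953 of 14120 by limma. With a log2 fold change beyond 0.5, 6 of 26 partner genes were called, beside 15.8% of all genes. Scaling by total counts alone moved the median of all genes from -0.0019 to 0.042 and the calls from 2861 higher and 3092 lower to 3433 higher and 2645 lower.

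No shared replicate effect was seen. The differences between replicates 1 and 2 of NC and of sh-IRF1 correlated at -0.015 over 14120 genes. With 1 difference per group, such a value cannot show whether the libraries were paired. With the replicate block, 1 neighbour was called, SLC22A4, at an adjusted p of 0.0175. With 2 libraries per group, and 195 reads in all for SLC22A5 and 320 for SLC22A4, small differences in these genes cannot be seen.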
